A study of Mus musculus with 6 samples.

Results

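In the cerebral cortex of adult mice, RNA bound to tagged ribosomes was compared with input RNA. A group of 10 genes that encode microtubule-associated proteins and stathmins was followed. They are Map2, Map1a, Map1b, Map4, Map6 and Mapt, and the 4 stathmin genes Stmn1, Stmn2, Stmn3 and Stmn4, which makes 10 of the 32531 gene symbols in the count tables. They were chosen by name with their CPM values in IP and input already known, so these values are given as a description and carry no test. CPM are reads scaled by library total, and the totals were adjusted between libraries by TMM scaling. Only the floor of 3 reads below uses totals without that adjustment. All libraries come from the Htr4-EGFP/Rpl10a (ES1299) line, in which the ribosomal protein Rpl10a carries EGFP and is made under control of the serotonin receptor gene Htr4. The IP group is RNA that anti-EGFP antibodies pulled down with polysomes of untreated cortex, and the input group is RNA of the same tissue and line labelled as input, with 3 libraries each. Both groups carry the transgene, so no untagged mouse is among these libraries. The labels give no age beyond adult, and they do not say how many animals a library holds or whether replicates are separate animals. Nor do they say whether IP and input libraries of the same replicate number share animals. What the p-values below reflect is thus the variation among these libraries, part or all of which may be technical.

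Microtubules are polymers of alpha and beta tubulin that carry transport and give neurites their shape. Structural microtubule-associated proteins bind along the polymer and steady it: MAP2 is the classical protein of dendrites and its mRNA is itself carried into dendrites, tau (Mapt) is the classical protein of axons, and MAP4 is the relative found in most cell types. MAP1A and MAP1B form a second family and are cut into heavy and light chains, and MAP6 (STOP) protects microtubules against cold. Stathmins do the reverse, since they bind free tubulin dimers and promote disassembly. Stathmin 1 is cytosolic, whereas the proteins of Stmn2 (SCG10), Stmn3 (SCLIP) and Stmn4 (RB3) are anchored to membranes and are mainly neuronal.

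The coding sequences of related members are shown because they mark which members could be mistaken for each other in short reads. For Map2, Mapt and Map4 the 60-base stretch with the highest summed identity to Map2 lies in the microtubule-binding repeats. Capitals mark bases that differ from Map2, and the sequences run 5′ to 3′ in GENCODE M21 transcripts.
Map2: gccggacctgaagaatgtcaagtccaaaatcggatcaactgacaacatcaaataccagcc
Mapt: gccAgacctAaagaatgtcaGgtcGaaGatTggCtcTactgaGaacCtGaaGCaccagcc
Map4: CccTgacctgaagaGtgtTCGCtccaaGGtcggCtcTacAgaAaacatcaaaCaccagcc
The Mapt stretch matches Map2 at 47 of 60 bases and the Map4 stretch at 46 of 60. For the stathmins the same search against Stmn1 found a stretch of the stathmin domain, with capitals at bases that differ from Stmn1.
Stmn1: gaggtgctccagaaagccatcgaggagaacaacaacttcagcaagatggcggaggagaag
Stmn2: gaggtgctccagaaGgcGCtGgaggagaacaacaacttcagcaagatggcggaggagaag
Stmn3: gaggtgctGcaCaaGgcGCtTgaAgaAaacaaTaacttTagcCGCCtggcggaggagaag
Stmn4: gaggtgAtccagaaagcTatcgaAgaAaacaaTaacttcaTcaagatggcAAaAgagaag
Stmn2 matches Stmn1 at 56 of 60 bases, Stmn4 at 51 and Stmn3 at 46. Even so, 9 of the 10 genes share no 50-base word of their coding sequence with any other annotated gene. The exception is Stmn1, where 351 of 401 such words (87.5%) also occur in the predicted gene Gm11223. Reads that align to several places are not counted, so the level of Stmn1 is uncertain. Exons of Map1a share 272 bases with Ppip5k1 on the opposite strand, and the strand setting of the counting is not stated, so their reads may not be told apart.

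In the GRCm38 build the 10 genes lie at separate places on 9 chromosomes. Map2 lies on chromosome 1 at 66175273 to 66442583 (plus strand), Map1a on chromosome 2 at 121289600 to 121310832 (plus), and Map1b on chromosome 13 at 99421446 to 99516540 (minus). Map4 spans 109931460 to 110083955 of chromosome 9 (plus), Map6 99267447 to 99337137 of chromosome 7 (plus) and Mapt 104231390 to 104332090 of chromosome 11 (plus). Among the stathmins, Stmn1 is at 134468320 to 134473843 of chromosome 4 (plus), Stmn2 at 8509360 to 8561606 of chromosome 3 (plus), Stmn3 at 181306459 to 181314500 of chromosome 2 (minus) and Stmn4 at 66344296 to 66361680 of chromosome 14 (plus). Their summed exons differ widely in length, from 1136 bases for Stmn3 to 16449 bases for Map2.

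Gene reads numbered 53147173 to 67559533 per IP library and 37696125 to 52360452 per input library. By these totals, without TMM scaling, a floor of 3 reads is 0.0444 to 0.0796 CPM. No member came near it: the lowest count was 763 reads, for Stmn1 in input replicate 3. Htr4, which drives the tag, had 19.9 ± 2.36 CPM in IP and 7.88 ± 0.265 CPM in input (SD, n = 3 each). Rpl10a, the tagged gene, had 0.873 ± 0.106 CPM in IP and 1.96 ± 0.605 CPM in input (log2 fold change -1.16, adjusted p = 0.066). It was past the threshold with DESeq2 (adjusted p = 0.041), with at least 1 CPM in 3 libraries (0.045) and with the length and GC offset (0.033), and over all alternatives the adjusted p ran up to 0.28, without input replicate 2. Ribosomal protein genes have many near-copies in the genome and reads that align to several places are not counted, so this level is uncertain. Of all genes, 7387 of 16506 tested genes (44.8%) passed an adjusted p of 0.05 in the edgeR test, with 21.3% of tested genes higher in IP and 23.4% lower. Marker genes of other cells moved with the groups. All 15 oligodendrocyte markers were lower in IP, with summed levels of 227 to 238 CPM in IP and 1732 to 1894 CPM in input, and all 14 astrocyte markers were lower, with 1137 to 1415 CPM in IP and 4748 to 5313 CPM in input. All 12 microglial markers (5.22 to 6.75 CPM in IP, 65.1 to 69.4 CPM in input), all 8 oligodendrocyte precursor markers (68.8 to 80.5 CPM in IP, 181 to 196 CPM in input) and 6 of 9 tested endothelial markers (7.68 to 10.4 CPM in IP, 13.2 to 19.1 CPM in input) were lower as well. None of these markers was at 0 in every IP library except the endothelial gene Tek. Of 15 pan-neuronal markers, 12 were higher in IP and 0 lower, with sums of 36366 to 39900.4 CPM in IP and 23297 to 27005 CPM in input. Oligodendrocytes also express Mapt, Stmn4 and Map4, and the part of these cells in the members' values was not tested. These levels compare RNA pulled down with RNA of the tissue, and do not count cells of a type.

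Map2, Map6 and Mapt were lower in IP, as was Map1b except with a length and GC offset. Map1a showed little difference, and Map4 and all 4 stathmins were higher. With that offset Stmn1 and Stmn4 kept their direction but were not past the threshold. In the fit across all genes, 9 of the 10 members were past the threshold, 5 higher and 4 lower, beside 44.8% of all tested genes. The ranges of IP and input did not overlap at the same 9 members, beside 56.1% of all tested genes. IP lay wholly above input at 5 members, beside 26.5% of tested genes, and wholly below at 4, beside 29.5%. Because the members were chosen with this contrast known, nothing is read from these counts. The median log2 fold change, IP over input, was -0.35 over the 6 Map and Mapt genes and 0.62 over the stathmins. It was 0.20 over all 10, against -0.02 over all tested genes and 0.56 over the 15 pan-neuronal markers. The reads of the 6 Map and Mapt genes together came to 5680 ± 76.2 CPM in IP and 6699 ± 312 CPM in input, and those of the 4 stathmin genes to 1101 ± 108 CPM in IP and 654 ± 48.9 CPM in input (SD, n = 3 each).

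**Figure D1:**
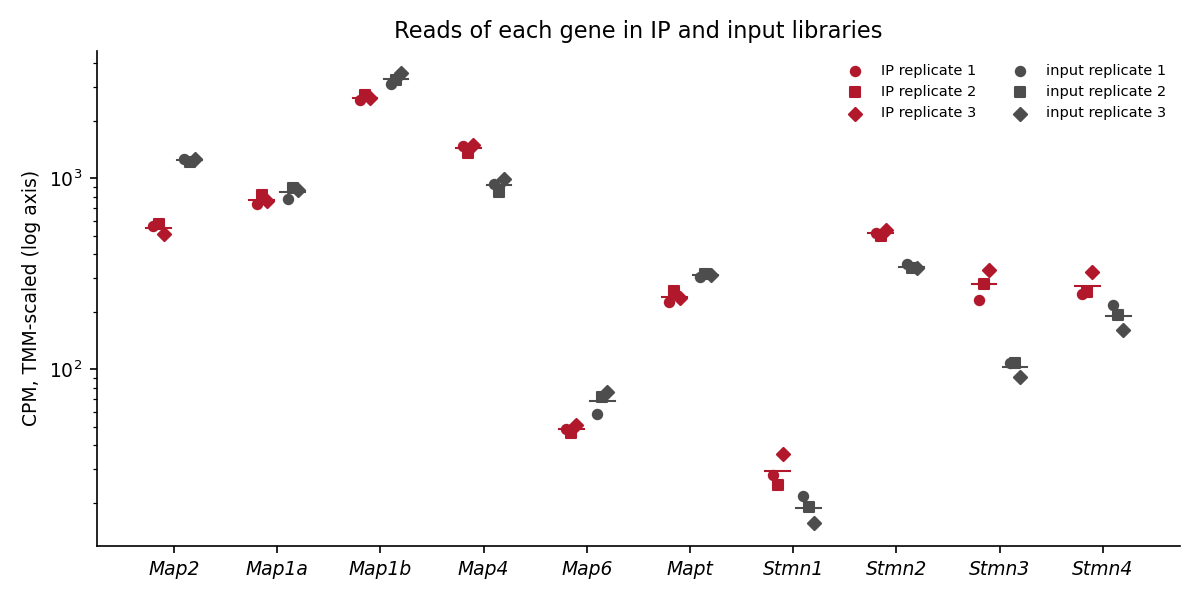
Level of each of the 10 genes in CPM with TMM-scaled library sizes (log axis), IP in red left of input in grey; symbols are the 3 libraries of each group and lines their means. Map2 sits at 512 to 575 CPM in IP and 1208 to 1266 CPM in input, and only Map1a has overlapping groups.

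Map2 had the largest decrease of the 10 genes. It had 562, 575 and 512 CPM in IP replicates 1 to 3, and 1253, 1208 and 1266 CPM in the input replicates. The highest IP library was below the lowest input library by a wide margin. The mean was 549 ± 33.4 CPM in IP and 1242 ± 30.1 CPM in input, a log2 fold change of -1.18 (SE 0.08), so input was 2.26 times IP. Within lanes 1, 2 and 3, each of which held 1 IP and 1 input library, the log2 fold change was -1.16, -1.07 and -1.31. The counts do not separate the dendritic high-weight forms of MAP2 from the short form.

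Mapt, the axonal counterpart, was lower by less. Its levels were 225, 256 and 236 CPM in IP, against 303, 315 and 310.0 CPM in input. All IP libraries were below all input libraries, and the log2 fold change was -0.37 (SE 0.08). The ratio of Map2 to Mapt reads in a library, which no scaling between libraries can change, was 2.31 ± 0.175 in IP and 4.02 ± 0.161 in input (SD, n = 3 each).

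Map4 differed from both of its relatives in direction. It had 1473, 1348 and 1486 CPM in IP, against 936, 849.8 and 992 CPM in input. The lowest IP library exceeded the highest input library. The mean was 1436 ± 76.6 CPM in IP and 926 ± 71.5 CPM in input, which is 1.55-fold (log2 fold change 0.63, SE 0.09), and the lanes gave 0.65, 0.67 and 0.58. Reads of Map4 per read of Map2 came to 2.62 ± 0.280 in IP and 0.745 ± 0.0401 in input. Of the reads of the 6 Map and Mapt genes, Map4 took 25.3% ± 1.65 in IP and 13.8% ± 0.866 in input, while Map2 took 9.67% ± 0.559 in IP and 18.6% ± 0.783 in input.

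Map1b, which is prominent in growing axons and has the highest read count of the 10, was modestly lower. It had 2570.45, 2721 and 2622 CPM in IP, against 3115, 3277 and 3541 CPM in input. The groups did not overlap, and the log2 fold change was -0.33 (SE 0.08). Map1a, its relative of mature neurons, had 731, 816 and 761 CPM in IP, against 776, 888 and 862 CPM in input. Here the groups overlapped, and the log2 fold change of -0.13 (SE 0.08) was not past the threshold. With an offset for summed exon length and GC content the values of Map1b and Map1a turned to 0.03 and 0.09. Neither was past the threshold there, so the lower level of Map1b holds only without this offset. For Map1a no direction is given beyond the counts themselves, as it was past the threshold under no setting. Map6, the cold-stability protein, had 48.8, 46.6 and 51.0 CPM in IP, against 58.2, 71.3 and 75.6 CPM in input. Its groups did not overlap, and the log2 fold change was -0.49 (SE 0.12).

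Stmn3 had the largest increase. It had 231, 277 and 330.0 CPM in IP, against 108, 108 and 91.1 CPM in input. Every IP library was far above every input library, and the means of 279 ± 49.7 CPM in IP and 102 ± 9.70 CPM in input differ 2.73-fold (log2 fold change 1.45, SE 0.13). Stmn2, whose protein is a growth-associated factor of axons, had 518, 500.2 and 538 CPM in IP, against 355, 338 and 337 CPM in input. The groups lay apart with little spread, at a log2 fold change of 0.60 (SE 0.08). Per read of Stmn2, libraries held 0.538 ± 0.0856 reads of Stmn3 in IP and 0.298 ± 0.0250 in input.

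Stmn4 and Stmn1 were also higher, and varied more between libraries than Stmn2. Stmn4 had 248, 253 and 321 CPM in IP, against 216, 192 and 159 CPM in input. The gap between the nearest libraries was small, and the log2 fold change was 0.53 (SE 0.13). Stmn1, the cytosolic member, had 27.8, 24.6 and 35.9 CPM in IP, against 21.8, 19.0 and 15.6 CPM in input. These groups also did not overlap, at a log2 fold change of 0.65 (SE 0.18), on counts that the near-copy makes uncertain. With the length and GC offset neither gene was past the threshold, at 0.17 for Stmn4 and 0.32 for Stmn1.

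The lanes agreed in sign at all 10 genes, but the stathmins had their highest values in lane 3, by little for Stmn2. There the log2 fold change was 1.20 for Stmn1, 0.67 for Stmn2, 1.86 for Stmn3 and 1.01 for Stmn4, the highest of the 3 lanes for each gene. In lane 1 the same genes had 0.35, 0.55, 1.09 and 0.20. Genes outside the 10 varied in this. Among the 9 tubulin genes called higher in IP, lane 3 was also the highest for Tubb2a (0.83, 0.92 and 1.48 in lanes 1 to 3). The same held for Tuba1a, Tuba4a, Tubb3, Tubb4b, Tubb5 and Tubg1. It did not hold for Tubb4a (0.67, 0.85 and 0.79) or Tubg2 (1.05, 0.75 and 0.80). Nor did it hold for the end-binding protein gene Mapre3 (0.98, 1.14 and 1.03). Leaving out IP replicate 3 gave 1.32 for Stmn3 and 0.41 for Stmn4. Between replicates, the median coefficient of variation of the 10 genes was 5.82% in IP and 7.32% in input, close to the 8.06% in IP and 7.02% in input of the 3676 tested genes with a mean of at least 50 CPM. Stmn1, Stmn3 and Stmn4 varied most in IP, at 19.7%, 17.8% and 14.9%.

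**Figure D2:**
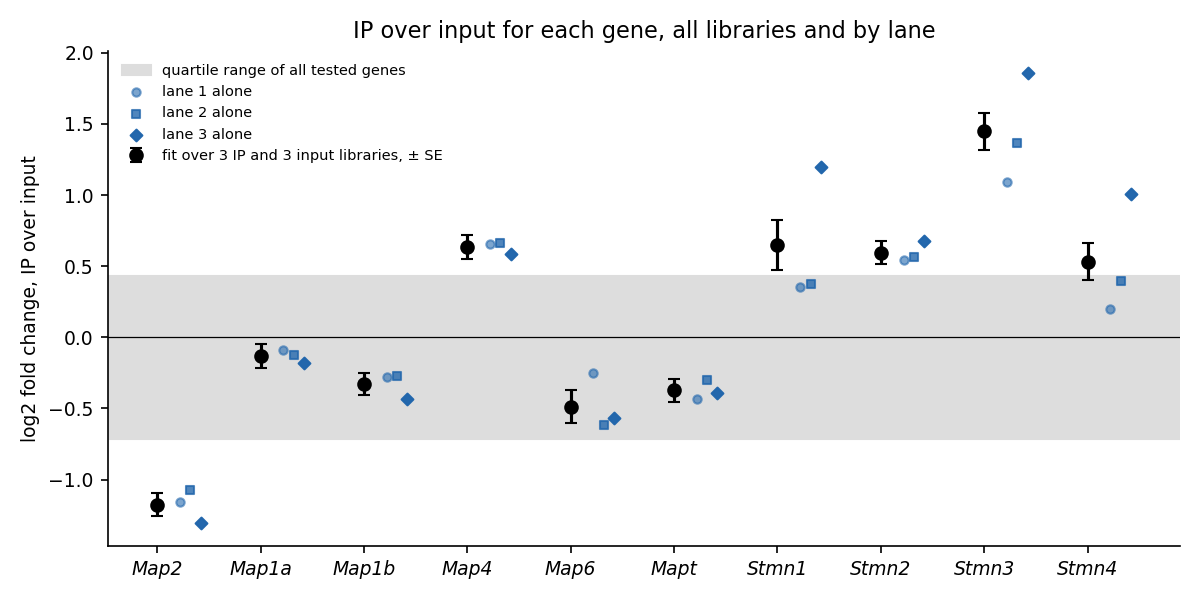
Log2 fold change, IP over input, of each gene: black points are the fit over all 6 libraries with its SE, blue points the 3 lanes alone, and the grey band the range between the quartiles of all 16506 tested genes (-0.72 to 0.43). Map2 lies below the band and Map4 and the 4 stathmins above it, with lane 3 the highest for each stathmin.

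Levels between genes are compared as mean CPM per kb of summed exon length. In IP the order began with Stmn3 at 246 ± 43.8 CPM per kb, then Map1b at 166 ± 4.82 and Stmn4 at 143 ± 21.2, the last pair overlapping between libraries. Map4 (94.8 ± 5.06) and Stmn2 (92.6 ± 3.38) followed and overlapped each other, then Map1a (63.3 ± 3.52). Map2 (33.4 ± 2.03) and Mapt (31.7 ± 2.08) overlapped in IP, and Stmn1 (15.3 ± 3.02) and Map6 (5.33 ± 0.240) came last. In input Map1b led with 209 ± 13.6 CPM per kb, and Stmn4 (98.8 ± 14.8) and Stmn3 (90.1 ± 8.54) overlapped each other. Map2 (75.5 ± 1.83), Map1a (69.2 ± 4.79), and the overlapping pair Stmn2 (61.3 ± 1.83) and Map4 (61.1 ± 4.72) followed. Mapt (41.1 ± 0.811) stood alone, and Stmn1 (9.78 ± 1.61) and Map6 (7.47 ± 0.993) overlapped at the low end. Map2 thus stood clear of Mapt in input and not in IP. Summed exons include long alternative ends, so a gene whose cortical transcripts use few of them is set too low on this scale.

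The members differed in length as in fold change. The Spearman correlation of log2 fold change with exon length was -0.65 over the 10 genes, and -0.24 over the 14469 tested genes with a length. Pearson's r with log2 length was -0.75 over the 10 genes and -0.05 over all. These are across genes, which share the same 6 libraries. The 10 genes were chosen with these fold changes known, so their coefficients are a description. The 14469 genes were divided by length into 5 groups of equal size. In the group with the shortest exons (up to 2473 bases), which holds Stmn1, Stmn3 and Stmn4, the median log2 fold change was 0.34, with 31.9% higher and 12.5% lower in IP. In the group with the longest exons (from 7633 bases), which holds Map2, Map1a, Map1b, Map4 and Map6, the median was -0.22, with 12.6% higher and 36.5% lower. Mapt and Stmn2 belong to the group next to it, whose median was -0.06. Map4 at 0.63 was therefore on the other side of zero from the median of its length group, and Map2 at -1.18 was further from zero than it. With the length and GC offset the log2 fold change was -0.82 for Map2, 0.93 for Map4 and -0.37 for Map6. It was -0.29 for Mapt, 0.68 for Stmn2 and 0.93 for Stmn3. These 6 genes remained past the threshold, which is a description, as the members were chosen with this contrast known.

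**Figure D3:**
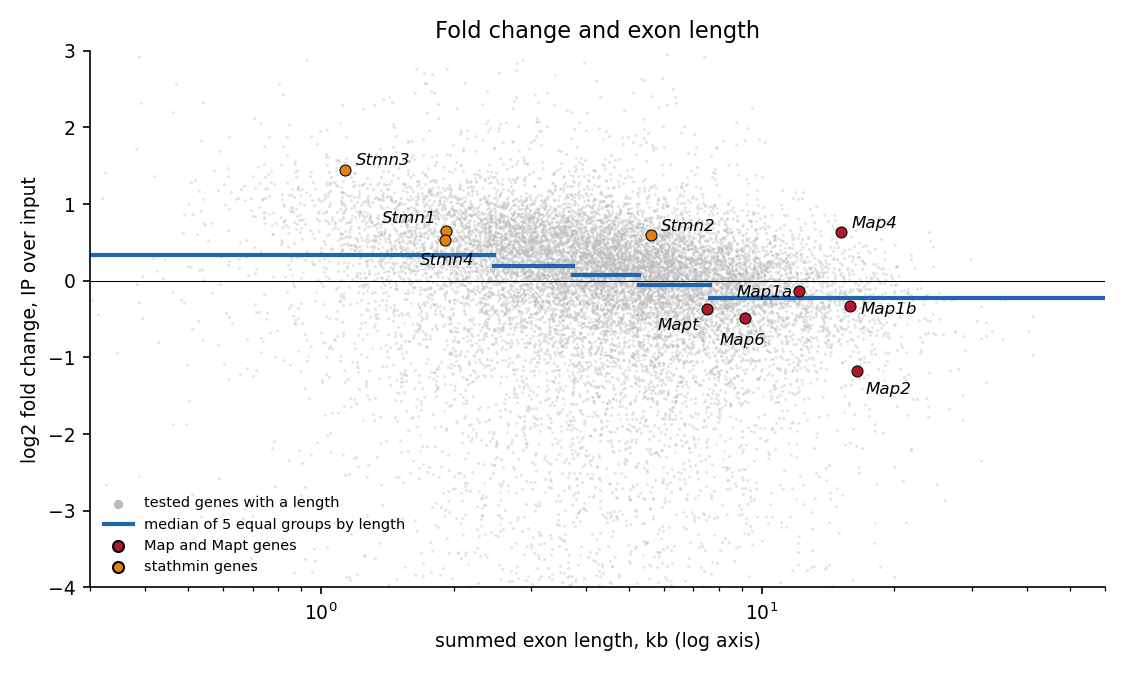
Log2 fold change, IP over input, against summed exon length (log axis) for 14469 tested genes (grey), of which 426 lie outside the axes; blue lines are the medians of 5 equal groups by length. The medians step down from 0.34 to -0.22, the short stathmins lie above them, Map4 lies above and Map2 below the median of the longest genes.

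**Figure D4:**
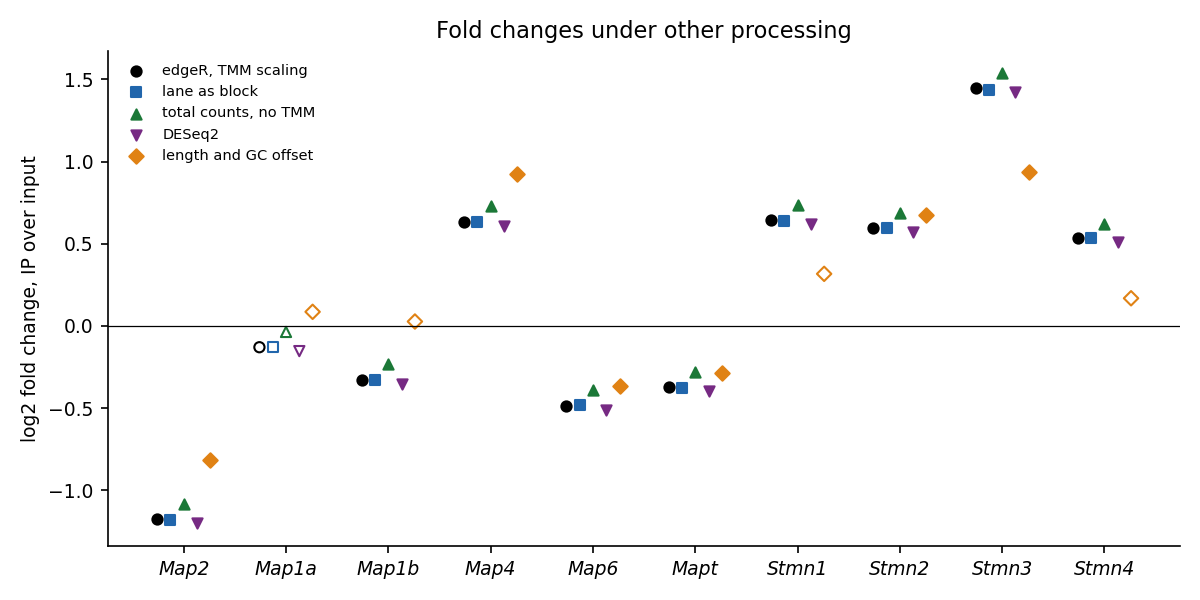
Log2 fold change, IP over input, of each gene under 5 ways of processing; filled symbols are past an adjusted p of 0.05 and open symbols are not. Map1a is open in all 5, and with the length and GC offset Map1b, Stmn1 and Stmn4 are open too, at 0.03 to 0.32. The offset leaves Map2 at -0.82 and Stmn3 at 0.93.

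The tubulins, the building blocks on which the members act, were mostly higher in IP. Of 15 tested tubulin genes, 9 rose and 2 fell, beside 21.3% higher and 23.4% lower of all tested genes. Their median log2 fold change was 0.62, and that of the 15 pan-neuronal markers was 0.56. Tubb4a, the most abundant, rose to 1327 ± 126 CPM in IP, against 776 ± 48.7 CPM in input (log2 fold change 0.77, adjusted p = 4.5e-05). Tubb2a had 322 ± 39.1 CPM in IP and 154 ± 34.0 CPM in input (1.06, adjusted p = 0.00014), and the gamma tubulin gene Tubg1, which seeds microtubules, had 23.7 ± 1.66 CPM in IP and 12.2 ± 2.68 CPM in input (0.96, adjusted p = 0.0011). Tubd1, delta tubulin of centrioles, fell to 1.47 ± 0.352 CPM in IP, against 3.31 ± 1.24 CPM in input (-1.17, adjusted p = 0.038). That call ended with total counts (adjusted p = 0.055) and without IP replicate 3 (0.081), input replicate 1 (0.20) or input replicate 2 (0.099). Several tubulin genes share sequence with other annotated genes, not all of them tubulins. Here the words are those of the longest protein-coding transcript with its untranslated ends, not of the coding sequence alone as for the members. Of the 50-base words of Tubb2a 49.6% occur in other genes, and 0.184% of those of Tubb4a. Of the other higher tubulins, Tuba1a had 75.5%, Tubb4b 55.5%, Tuba4a 48.8%, Tubg2 14.3%, Tubg1 14.1%, Tubb5 0.115% and Tubb3 0%. Reads that align to several places are not counted, so the levels of those with large shares are uncertain.

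Among 35 tested genes of other proteins that bind microtubules, 11 rose, 7 fell and 17 did not pass, beside 21.3% higher and 23.4% lower of all tested genes. The median log2 fold change was 0.06. The end-binding protein gene Mapre3 rose to 313 ± 20.9 CPM in IP, against 151 ± 8.33 CPM in input (1.05, adjusted p = 3.9e-06), and Dpysl5, a collapsin response mediator protein gene, to 58.2 ± 5.09 CPM in IP, against 28.9 ± 6.27 CPM in input (1.01, adjusted p = 0.00026). Mid1, a microtubule-bound ubiquitin ligase gene, fell to 0.292 ± 0.0431 CPM in IP, against 2.47 ± 1.05 CPM in input (-3.07, adjusted p = 0.00089). The most abundant, the doublecortin-like kinase gene Dclk1, had 2055 ± 170 CPM in IP and 1972 ± 208 CPM in input (0.06, adjusted p = 0.64), and was past the threshold with the length and GC offset (0.42, adjusted p = 0.0020). With that offset the list held 3 lower genes, and 4 with the lane as block as well. Its relative Dcx, named here after its value was seen, fell to 40.7 ± 1.62 CPM in IP, against 143 ± 8.26 CPM in input (-1.82, adjusted p = 8.8e-08). Dcx is also 1 of 10 immature neuron markers, which include the member Stmn1, and it was the 1 that was lower, while 4 were higher and 5 did not pass (median log2 fold change 0.53). Their summed level was 245 to 274 CPM in IP and 309.9 to 324 CPM in input.

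Among 32 genes of the motors (kinesins, dyneins and dynactins), 13 rose, 7 fell and 12 did not pass, beside 21.3% higher and 23.4% lower of all tested genes. The median log2 fold change was 0.17. The kinesin light chain gene Klc2 rose to 225 ± 35.8 CPM in IP, against 87.7 ± 6.05 CPM in input (1.36, adjusted p = 5.7e-06), and the dynein light chain gene Dynll1 to 278 ± 6.28 CPM in IP, against 128 ± 14.8 CPM in input (1.12, adjusted p = 5.2e-06). Kif1c fell to 5.08 ± 1.10 CPM in IP, against 25.9 ± 0.524 CPM in input (-2.35, adjusted p = 2.3e-06). Kif1b, the most abundant, had 957 ± 95.8 CPM in IP and 1141 ± 50.1 CPM in input (-0.25, adjusted p = 0.037). This call ended with total counts (adjusted p = 0.13), with no filter (0.052) and without any one library except IP replicate 3 (0.066 to 0.14), and the value turned to 0.13 with the length and GC offset. With that offset 4 genes of the list were lower, and 4 with the lane as block as well.

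Among genes for tubulin modification, severing and folding, 11 of 29 rose, 3 fell and 15 did not pass, at a median log2 fold change of 0.17 and beside 21.3% higher and 23.4% lower of all tested genes. The tubulin folding cofactor gene Tbca had 53.5 ± 10.8 CPM in IP and 18.9 ± 5.59 CPM in input (1.51, adjusted p = 0.00013), and Nme1, a nucleoside diphosphate kinase gene, had 189.6 ± 7.52 CPM in IP and 85.8 ± 12.9 CPM in input (1.14, adjusted p = 1.4e-05). Another cofactor gene, Tbce, fell to 12.5 ± 1.61 CPM in IP, against 23.6 ± 1.17 CPM in input (-0.92, adjusted p = 0.0005). Agtpbp1, which trims glutamates from tubulin tails and is the most abundant here, rose to 538 ± 52.2 CPM in IP, against 427 ± 29.9 CPM in input (0.34, adjusted p = 0.012), a call that ended without input replicate 1 (0.054). The number of lower genes was 5 with the lane as block.

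Of 34 genes of kinases and phosphatases that act on these proteins, 16 rose, 3 fell and 15 did not pass, beside 21.3% higher and 23.4% lower of all tested genes. Their median log2 fold change was 0.23. Prkaca, a catalytic subunit of protein kinase A, rose to 425 ± 41.8 CPM in IP, against 215 ± 8.25 CPM in input (0.98, adjusted p = 9.1e-06). Mark4, a kinase of tau and MAP2, had 24.7 ± 4.68 CPM in IP and 13.4 ± 1.51 CPM in input (0.88, adjusted p = 0.0015). The calcium-dependent kinase gene Camk4 fell to 571 ± 57.0 CPM in IP, against 995 ± 47.8 CPM in input (-0.80, adjusted p = 3.3e-05). Camk2a had 3132 ± 677 CPM in IP and 2849 ± 186 CPM in input (0.14, adjusted p = 0.41).

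Map2 was also set beside 18 other genes whose mRNA is found in dendrites. Of these, 3 rose, 5 fell and 10 did not pass (median log2 fold change -0.11), beside 21.3% higher and 23.4% lower of all tested genes. Ntrk2, the BDNF receptor gene, which astrocytes express too, fell to 249 ± 35.5 CPM in IP, against 478 ± 52.5 CPM in input (-0.94, adjusted p = 6.3e-05). The scaffold gene Shank1 fell to 415 ± 35.7 CPM in IP, against 601 ± 79.8 CPM in input (-0.53, adjusted p = 0.0018). Nrgn, the neurogranin gene, rose to 470.2 ± 70.0 CPM in IP, against 282 ± 12.3 CPM in input (0.74, adjusted p = 0.00019), and was not past the threshold with the length and GC offset (0.25, adjusted p = 0.088). No value among the 18 was as low as that of Map2.

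**Figure D5:**
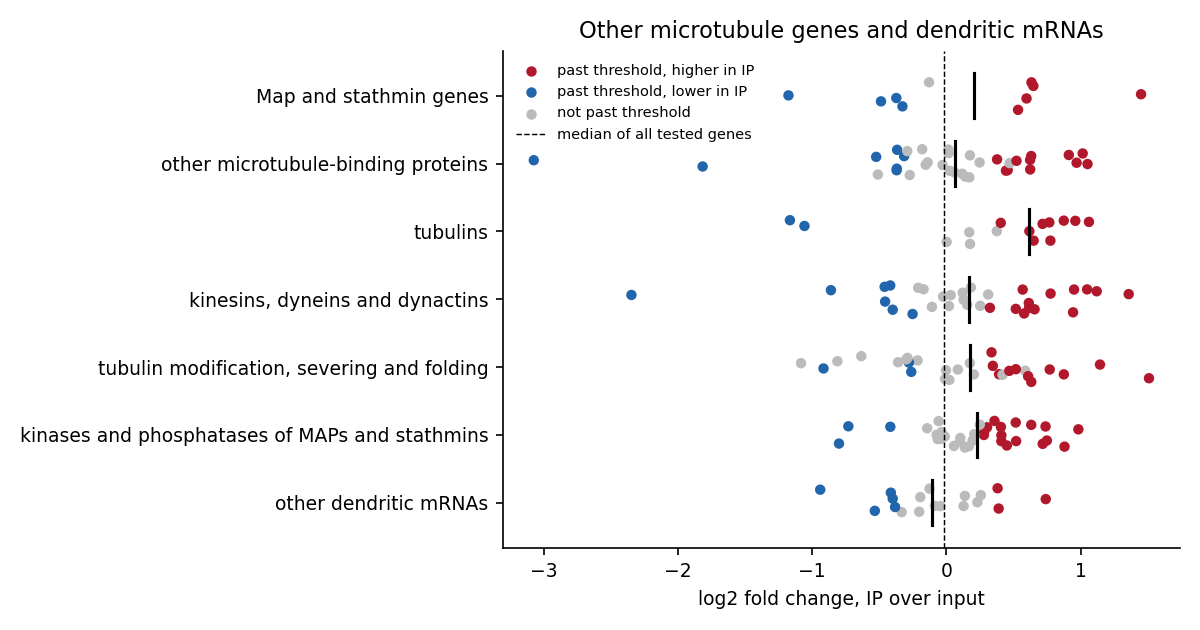
Log2 fold change, IP over input, of the 10 genes (top) and of the tested genes of 6 other lists; red and blue points are past an adjusted p of 0.05, black bars are list medians and the dashed line is the median of all tested genes. Tubulins have the highest median (0.62) and the dendritic mRNAs the lowest (-0.11).

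The genes most like Stmn3 and Map2 were found by the Euclidean distance between log2 CPM profiles centred on each gene's mean over the 6 libraries, among 3543 other genes with a mean of at least 50 CPM, leaving out predicted genes and sequence numbers by their symbols. Nearest to Stmn3 were Chchd10, a mitochondrial protein gene (distance 0.20), Sv2c, a synaptic vesicle glycoprotein gene (0.23), and Sncb, the beta-synuclein gene (0.25). Chchd10 had 116 ± 16.7 CPM in IP and 42.8 ± 3.99 CPM in input. Nearest to Map2 were Ccdc88a, the gene of the actin-binding protein girdin (0.12), Nacc2, a transcriptional repressor gene (0.13), and the zinc finger gene Zfp644 (0.14). Ccdc88a had 120.2 ± 5.22 CPM in IP and 264 ± 17.3 CPM in input. The distances rest on the same 6 libraries as the contrast, so the likeness is a description.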

How the data were processed

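TRAP-seq (translating ribosome affinity purification with RNA sequencing) gave 6 libraries, 3 IP and 3 input, grouped by title. The authors deposited raw counts of reads per gene symbol, not normalized. Per the submitters' processing notes, STAR 2.0.0e, HTSeq and the build mm10 were used, while HTSeq's version, its strand setting and the annotation it used are not stated. Rows without a gene entered neither the library totals nor the tests. Of all listed reads they took, in IP and in input, 8.60 to 8.92% and 16.7 to 18.1% for reads outside genes, 1.77 to 1.91% and 8.12 to 9.83% for reads on several genes, and 32.9 to 35.7% and 21.1 to 23.3% for reads aligned to several places; a row called unknown held at most 2 reads. Chi-square divided by its degrees of freedom ran from 22.0 to 65.2 for pairs of libraries within a group, so no library was a copy.

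In R 4.3.3, edgeR 4.0.16 was run as a quasi-likelihood fit with TMM scaling, filterByExpr, a group term alone and Benjamini-Hochberg adjustment over 16506 tested genes, two-sided, at 0.05. All 10 members passed the filter. SE values derive from the test statistic, and CPM values use TMM-scaled library sizes. The code was tested on simulated data. Lengths, places and coding sequences are from GENCODE M21 (GRCm38), and 23113 symbols had a length and GC content.

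In both groups replicate 1, 2 and 3 were run on lanes 1, 2 and 3, per the labels. Over genes, IP and input libraries of one lane deviated from their group means with correlations of 0.087, 0.061 and 0.043, and those of different lanes with -0.057 to 0.0014, so a fit with the number as block was run too. All IP libraries carried one index and all inputs another, so index and group cannot be told apart. Alternatives were DESeq2 1.42.0, RLE size factors, total counts, no filter, at least 1 CPM in 3 libraries, the block, an offset from a robust smooth fit on length and GC content with and without the block, and leaving out each library.

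The members and lists were chosen with earlier results of these data known. Each list contributes up to 4 named genes: the 2 strongest calls in its commoner direction, the strongest call in the opposite direction, and its most abundant gene. The floor of 3 reads covers counting error only, whereas SD and SE values include variation between libraries.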

Additional observations from a re-analysis of the deposited data

How the results depend on the processing

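Most values kept their direction and side of the threshold under the 14 alternatives. Among the 10 members, Map2, Map4, Map6, Mapt, Stmn2 and Stmn3 did so under every alternative run. This is a description, as the members were chosen with the contrast known. Their log2 fold changes ran from -1.23 to -0.82 for Map2, 0.56 to 0.93 for Map4, -0.57 to -0.37 for Map6, -0.42 to -0.28 for Mapt, 0.55 to 0.69 for Stmn2 and 0.92 to 1.58 for Stmn3. With the length and GC offset, alone and with the replicate block, 3 members were called higher in place of 5, Map1a was 0.0855 and 0.0853, Map1b 0.0264 and 0.0266, and Kif1b 0.126 and 0.122. The replicate block alone changed no call of a member or of another named gene. It moved the lower genes of the tubulin modification, severing and folding list from 3 to 5. In that list, lower genes numbered 1 with total counts, 6 with DESeq2, 6 with at least 1 CPM in 3 libraries, 5 with the offset and block together, and 1 to 5 with 1 library left out, and higher genes numbered 7 with the offset and block. Lower genes among other microtubule-binding proteins numbered 3 with the offset and 4 with the block added, and among motor genes 4 and 4. Lower tubulins numbered 1 with total counts and 0 to 2 with 1 library left out. Higher dendritic mRNAs numbered 1 with the offset. With 1 library left out, Dclk1 ran from -0.0106 without input replicate 2 to 0.161 without input replicate 3, and was -0.00068 without IP replicate 3. Camk2a ran from -0.0498 without IP replicate 2 to 0.237 without IP replicate 3, and neither gene was called. Apart from the offset, whose construction removes a trend with length and GC content, the cause was not tested. Total counts shifted the median of 12451 genes tested under all settings by 0.09 on the log2 scale, the largest shift of any setting. Depth did not limit the members, all of which had at least 763 reads in each library.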
